A study of Mus musculus with 2 samples.

Results

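RUNX2 CUT&Tag peaks were examined across the stretch of mouse chromosome 8 that holds Irf2bp2 and Tomm20. The stretch, 557.6 kb long on GRCm38 (mm10), takes in both genes, the 336.7 kb between them and 100 kb on either side. The peaks come from MC3T3-E1, a mouse line of osteoblast precursor cells, left untreated and grown as 1 group with 2 replicate libraries. RUNX2 is the Runt-family factor needed for osteoblast differentiation, and CUT&Tag uses an antibody to direct the transposase Tn5 to the chromatin a protein occupies. No control library and no second condition are among the samples, so nothing is contrasted between groups. The stretch holds 35 of the 26853 peaks listed for replicate 1 and 35 of the 27287 listed for replicate 2. Peaks of both replicates that overlapped by at least 1 bp made 29 shared regions, of 18133 in all. The stretch was chosen by the density of these same peaks, so its counts are given as a description, with no test. Nothing in the labels states that the replicate libraries came from separate cultures, so their spread may be technical only. The lists hold the position and width of each peak, with no height and no read number, so depth is unknown.

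Irf2bp2 encodes a nuclear corepressor first known as a partner of the interferon regulatory factor IRF2, and it also binds the transcription factor NFATc2 and the TEAD cofactor VGLL4. Tomm20 encodes a receptor of the TOM complex, the gate in the outer mitochondrial membrane through which proteins made in the cytosol enter. Irf2bp2 (126588296 to 126593986) and Tomm20 (126930664 to 126945921) are both transcribed towards lower coordinates. The space between them therefore lies before the start of Irf2bp2 and beyond the 3′ end of Tomm20. Transcription factors often bind in groups of sites far from gene ends, and the position of such a site does not tell which gene it acts on.

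The stretches just before the starts of the protein-coding genes are shown because shared regions lay on them. They come from RefSeq promoter sequences of GRCm38.p6, read 5′ to 3′ on the minus strand, and end at the last base before the gene's annotated span; that of Rbm34 is shorter. Capitals mark matches, on either strand, to the letters searched: TGTGGT and TGCGGT (RUNX core), TGANTCA (AP-1), GGAATG (TEAD), CCGGAA (ETS), GGGCGG (SP) and CCAAT.
Irf2bp2, chr8:126593987-126594236: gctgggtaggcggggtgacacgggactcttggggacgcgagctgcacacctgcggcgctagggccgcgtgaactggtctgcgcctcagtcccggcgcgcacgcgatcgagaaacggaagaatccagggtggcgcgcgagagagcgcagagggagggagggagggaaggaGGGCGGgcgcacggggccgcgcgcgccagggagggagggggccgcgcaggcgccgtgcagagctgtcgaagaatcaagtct
Tomm20, chr8:126945922-126946171: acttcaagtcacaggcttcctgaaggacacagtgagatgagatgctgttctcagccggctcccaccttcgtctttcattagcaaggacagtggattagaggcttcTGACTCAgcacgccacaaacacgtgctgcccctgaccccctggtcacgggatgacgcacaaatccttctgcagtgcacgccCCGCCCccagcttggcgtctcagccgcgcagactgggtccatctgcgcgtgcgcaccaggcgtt
Rbm34, chr8:126971128-126971299: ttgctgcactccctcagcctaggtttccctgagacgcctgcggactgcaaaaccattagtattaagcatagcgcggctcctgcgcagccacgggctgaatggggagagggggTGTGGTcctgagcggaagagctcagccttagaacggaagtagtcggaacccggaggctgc

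Of the 3 stretches, that of Rbm34 holds a RUNX core match, TGTGGT, 138 bases before the start of the listed transcript (126971182 to 126971187). Rbm34, which encodes an RNA-binding protein, is the neighbour of Tomm20, and all 172 printed bases lay inside the peaks of both replicates. The full 250 bases before that start, which run on into the annotated span and are not all printed, also hold 3 ETS matches, 79, 72 and 10 bases before it. The Tomm20 stretch holds an AP-1 match, TGACTCA, 145 bases before the start, and an SP match on the opposite strand, and 249 of its 250 bases lay inside both peaks. The same shared region also held RUNX letters within the Tomm20 span, which is not printed. There, the 250 bases before the start of the lncRNA gene LOC115486982 hold TGCGGT matches 91 and 54 bases before it. The match at 91 bases lay inside the peaks of both replicates. RUNX letters also stood before the listed starts of the lncRNA genes Gm31718 and Gm51605, outside the peaks shared by both replicates. The Irf2bp2 stretch holds 1 SP match, 81 bases before the start, and no RUNX, AP-1, TEAD, ETS or CCAAT letters. Its SP match lay nearer to the gene than either peak, since the 128 bases covered in both replicates are those farthest from the gene. Of 32817 RefSeq promoters cut to the same 250 bases, 14.0% hold TGTGGT, 5.09% TGCGGT, 6.75% TGANTCA, 12.6% GGAATG, 12.0% CCGGAA, 32.7% GGGCGG and 33.8% CCAAT. A match of letters is a description of the sequence and not a binding site. The sequences of the regions between the genes were not analysed here.

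RUNX2 peaks were dense between Irf2bp2 and Tomm20. Replicate 1 had 27 peaks there and replicate 2 had 25 (mean 26.0 ± 1.41, SD, n = 2), and 22 regions were shared. The shared regions stood at 65.3 per Mb, against 7.20 per Mb on the rest of chromosome 8 (903 regions in 125.5 Mb between the first and last peak), a ratio of 9.08. For the peaks of replicate 1 alone the densities were 80.2 and 10.6 per Mb, and for those of replicate 2 alone 74.3 and 10.7 per Mb. Peaks covered 4.80% of the interval in replicate 1 and 4.49% in replicate 2, against 0.484% and 0.491% of the rest of the chromosome. Away from gene ends both densities were lower and the ratio was larger. Regions within 1 kb of a gene end made 22.7% of those in the interval and 40.4% elsewhere. The interval holds no protein-coding gene by its definition, whereas the rest of the chromosome does. Counting only positions over 1 kb from any gene end, gene bodies included, 17 shared regions gave 53.6 per Mb in the interval and 538 gave 4.57 per Mb elsewhere, a ratio of 11.74.

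In 1 set of cuts of the rest of the chromosome, no stretch of this length reached that number. When the rest of the chromosome was cut into 372 neighbouring stretches of 336.7 kb, their median was 1 shared region, 148 had none and the fullest had 17. The 22 regions between the genes exceeded all of these 372. Stretches cut at other positions were not counted, and a cut can split a group of regions, whereas the interval was chosen by its density.

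**Figure D1:**
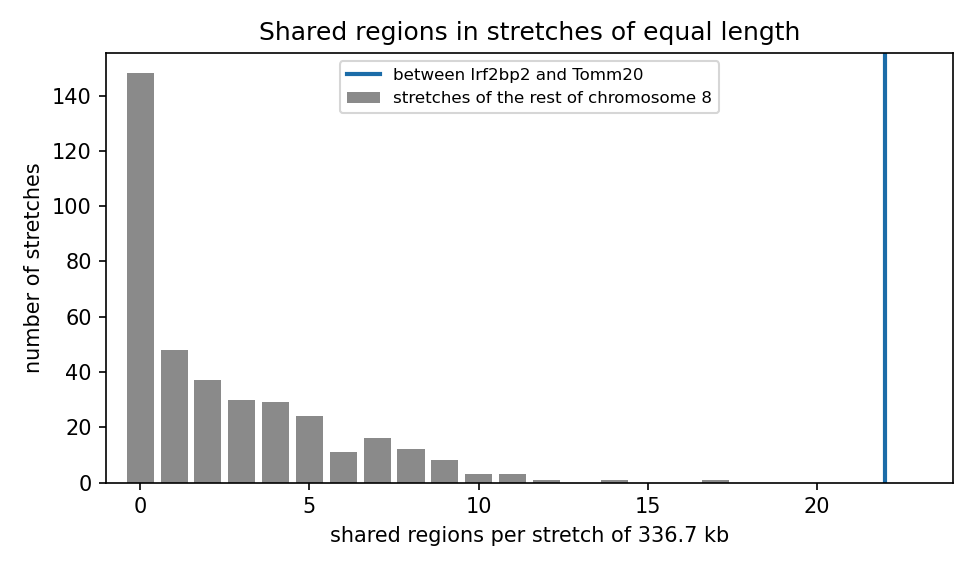
Number of stretches of chromosome 8 (vertical axis) by the shared regions in each stretch of 336.7 kb (horizontal axis). Grey bars are the 372 stretches outside the window, the fullest with 17, and the blue line marks the 22 regions between Irf2bp2 and Tomm20.

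The same was seen when spaces between neighbouring protein-coding genes were compared. Chromosome 8 has 125 such gaps of at least 100 kb, with a median of 0 shared regions, and 63 of them had none. The gap from Irf2bp2 to Tomm20 ranked first both by regions per Mb and by their number. The next by density was the gap on the other side of Irf2bp2, from Tarbp1, with 6 regions in 113.2 kb (53.0 per Mb). Lower in the order were Cyb5b to Nfat5 with 4 (37.7 per Mb) and Tacc1 to Gm39147 with 4 (28.0 per Mb). Irf2bp2 thus stood between the 2 densest of these gaps. By number, the second was Maf to Dynlrb2 with 12 regions.

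**Figure D2:**
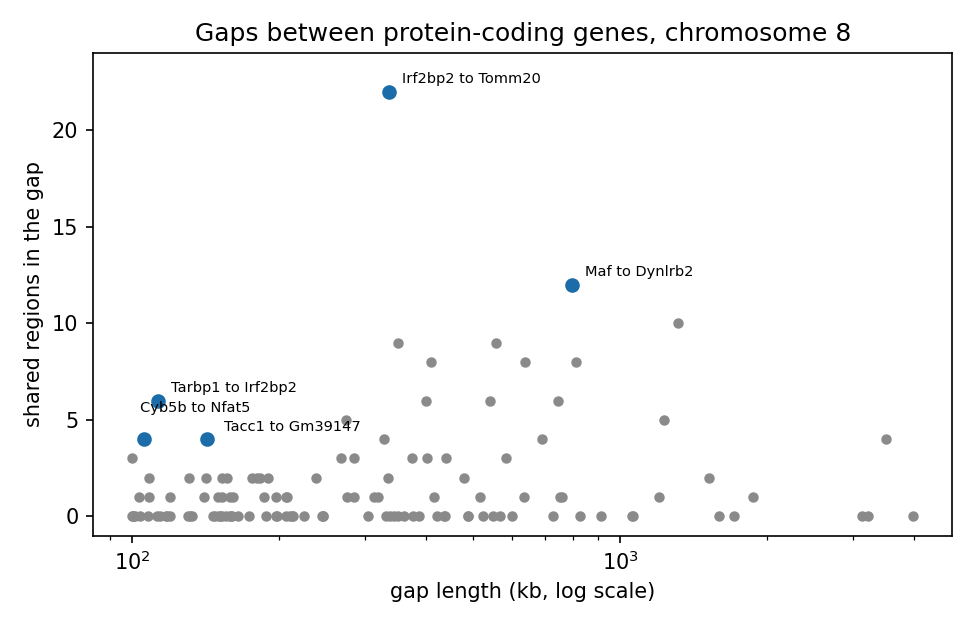
Shared regions (vertical axis) in each of the 125 gaps of at least 100 kb between protein-coding genes of chromosome 8, by gap length in kb on a log scale. The gap from Irf2bp2 to Tomm20 holds 22 regions, and the named gap next to it by number, Maf to Dynlrb2, holds 12.

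Over all chromosomes, 2967 gaps were at least 100 kb long. Irf2bp2 to Tomm20 ranked 4th by regions per Mb, after Rxra to Col5a1 (81.3 per Mb), Slc44a3 to 4930432M17Rik (79.5) and Csf1 to Eps8l3 (70.6). Those 3 gaps were shorter, at 123.1, 138.4 and 113.4 kb, and held 10, 11 and 8 regions. By number of regions it ranked second, after Klf4 to Actl7b, which had 25 in 1207.5 kb. Only the loci of Tns3 and Fndc3b were set beside the whole window, which had 52.0 shared regions per Mb. Each was taken as the gene with 100 kb on either side, and both were less dense. Gene loci were not ranked by density. The locus of Tns3, which encodes the adhesion protein tensin 3, had 18 regions (41.6 per Mb), and that of Fndc3b, which encodes a fibronectin type III domain protein, had 15 (30.3 per Mb).

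Within the interval the regions fell into an Irf2bp2 side and a Tomm20 side. Cut into 3 parts of 112.2 kb, the part next to Irf2bp2 had 9 shared regions, the middle 3 and the part next to Tomm20 10. Neighbouring midpoints were a median of 11.0 kb apart, from 1.3 to 56.6 kb, against a median of 45.4 kb on the rest of the chromosome. The longest distance between shared regions, 56.6 kb between midpoints, lay in the middle, and it held 1 peak of replicate 1 alone and 1 of replicate 2 alone. Regions were then joined wherever no more than 12500 bp separated them, a distance often used to join enhancer parts. This gave 2 groups of 5 regions and 1 group of 4 in the interval. Groups of 5 or more regions were seen 5 times on chromosome 8 and 59 times in all, with a maximum of 9 regions.

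**Figure D3:**
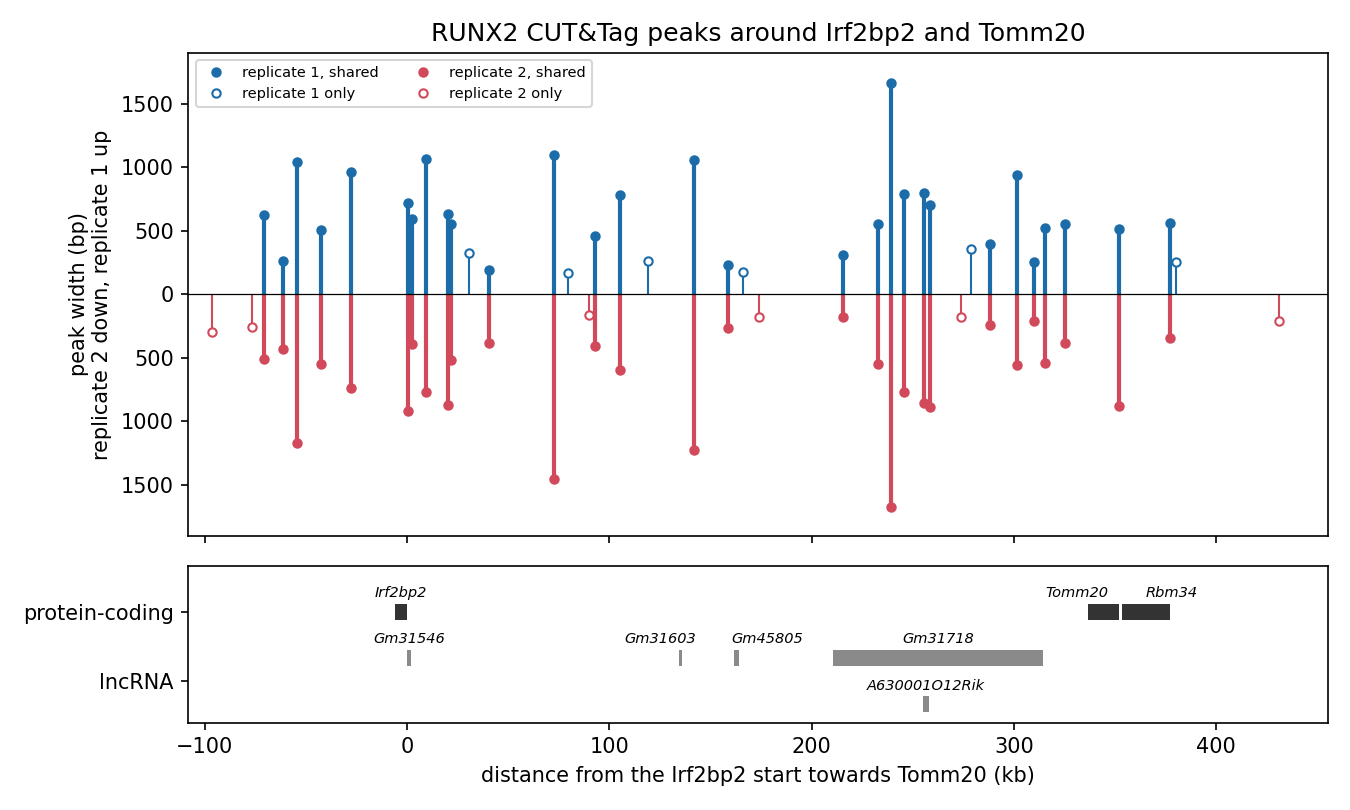
Peaks of replicate 1 (upward, blue) and replicate 2 (downward, red) by their width in bp and their distance in kb from the Irf2bp2 start, with filled points for shared regions and open points for peaks of 1 replicate. Bars below show protein-coding genes (black) and lncRNA genes (grey); the widest peaks, 1663 and 1675 bp, stand 239.2 kb from Irf2bp2 inside Gm31718.

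The group of 5 next to Irf2bp2 spanned 22.0 kb, from 126594108 to 126616104. Its first region had its midpoint 578 bp before the Irf2bp2 start, in the lncRNA gene Gm31546, with widths of 721 bp (replicate 1) and 914 bp (replicate 2). It did not reach the start itself. The second stood 2.4 kb out, 227 bp beyond the far end of Gm31546 by its midpoint, at 595 and 387 bp. The others were outside annotated genes. The one at 9.5 kb measured 1066 and 771 bp, and the pair at 20.5 and 21.8 kb measured 635 and 872 bp, and 557 and 513 bp. None of the peaks lay inside Irf2bp2.

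Further out on this side 4 regions stood apart from genes. A narrow one at 40.7 kb measured 195 bp in replicate 1 and 379 bp in replicate 2. That at 72.6 kb (126665824 to 126667272) was among the widest of the interval, at 1095 and 1449 bp, and ranked 606th by width in replicate 1 and 106th in replicate 2. Those at 93.1 and 105.4 kb measured 458 and 405 bp, and 779 and 596 bp. The middle of the interval then held a wide region at 141.8 kb (1061 and 1221 bp), about 6.0 kb from the lncRNA gene Gm31603, and narrow ones at 158.8 kb (232 and 268 bp) and 215.4 kb (308 and 179 bp).

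The group of 5 on the Tomm20 side lay inside the long lncRNA gene Gm31718 (126804707 to 126908370) and spanned 26.8 kb, from 126826423 to 126853199. It held the widest region of the interval, from 126832319 to 126834076, which measured 1663 bp (replicate 1) and 1675 bp (replicate 2). These ranked 28th and 34th by width in the full lists. The other 4 were at 232.7 kb (558 and 545 bp), 245.6 kb (788 and 764 bp), 255.8 kb (797 and 856 bp) and 258.7 kb (702 and 888 bp). That at 255.8 kb lay in A630001O12Rik, an lncRNA gene inside Gm31718, 742 bp from its start. That at 258.7 kb had its midpoint 569 bp from a start listed for Gm31718, and neither region covered a listed start.

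In all, 9 of the 22 regions had their midpoint inside Gm31718, that at 215.4 kb among them. The 3 not yet given were at 288.0 kb (397 and 243 bp), 301.6 kb (937 and 555 bp) and 309.7 kb (256 and 207 bp). The group of 4 nearest to Tomm20 took in the last 2 of these and those at 315.4 kb (526 and 536 bp) and 325.5 kb (557 and 380 bp). The midpoint of its last region lay 11.2 kb beyond the 3′ end of Tomm20. Over the 22 regions, 5 (22.7%, 95% Wilson interval 10.1 to 43.4) lay within 1 kb of a gene end, 7 (31.8%, 16.4 to 52.7) inside a gene farther from its ends and 10 (45.5%, 26.9 to 65.3) outside genes. On the rest of the chromosome these shares were 40.4%, 38.1% and 21.5% of 903 regions. By definition no protein-coding gene lies between Irf2bp2 and Tomm20, whereas 56.6% of the 903 regions lay inside one. The difference in shares thus follows at least in part from how the interval was drawn. The intervals cover counting error only, and regions of 1 locus are not independent.

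Outside the interval, the starts of Tomm20 and Rbm34 were each covered by a shared region. That of Tomm20, from 126945297 to 126946176, measured 511 bp (replicate 1) and 880 bp (replicate 2). The peaks of both replicates covered the Tomm20 start, and the wider one of replicate 2 also reached the start of LOC115486982, an lncRNA gene inside Tomm20. That of Rbm34, from 126970989 to 126971589, was 562 bp and 343 bp wide. Of all protein-coding genes with a RefSeq promoter sequence, 33.0% had a shared region on the 300 bases around a start, and Irf2bp2, Tomm20 and Rbm34 all did. Beyond Rbm34 no region was shared up to the end of the window.

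On the far side of Irf2bp2, the 100 kb held 5 shared regions, all beyond the 3′ end of the gene. With distances counted from the Irf2bp2 start, those at -70.6, -61.4, -54.1 and -42.7 kb formed a group of 4 over 28.6 kb. The widest, from 126539291 to 126540504, measured 1039 and 1168 bp, and the others measured 629 and 509 bp, 266 and 431 bp, and 508 and 549 bp. The fifth, at -27.6 kb and 907 bp from the lncRNA gene Gm39286, was 965 and 740 bp wide. At the edges of the window, the last peaks left out were those at the start of Tarbp1, 13.1 kb outside it in replicate 1 and 12.8 kb in replicate 2. On the other side they were those at Pard3, 19.1 and 17.8 kb outside. The outermost peaks kept were 34.8 and 9.3 kb inside the lower edge and 71.9 and 20.7 kb inside the upper edge.

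The replicates listed largely the same places between the genes. In replicate 1, 22 of 27 peaks overlapped a peak of replicate 2 (81.5%, 95% Wilson interval 63.3 to 91.8), and in replicate 2, 22 of 25 overlapped one of replicate 1 (88.0%, 70.0 to 95.8). On the rest of chromosome 8 these shares were 69.3% and 67.7%. The difference was not tested, since peaks of 1 locus chosen by its density are not independent. The 5 peaks of replicate 1 alone were 168 to 356 bp wide and the 3 of replicate 2 alone 162 to 176 bp, narrower than most shared ones. Each of these was 2753 to 13263 bp from the nearest peak of the other replicate. On the rest of the chromosome, peaks of 1 replicate alone were narrower too. Their medians were 259 bp (replicate 1) and 257 bp (replicate 2), against 492 and 493 bp for shared ones. In the flanks, 1 more peak was listed in replicate 1 alone and 3 in replicate 2 alone.

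Peaks between the genes were wider than those of the rest of the chromosome by their medians. In replicate 1 the median was 557 bp over 27 peaks against 399 bp over 1326, and in replicate 2 it was 536 bp over 25 against 388.5 bp over 1348. Over shared regions alone the medians were 615 and 550 bp in the interval and 492 and 493 bp elsewhere. Peaks at least 1000 bp wide in both replicates made 3 of the 22 regions (13.6%, 4.75 to 33.3), at 72.6, 141.8 and 239.2 kb. Elsewhere on the chromosome they made 26 of the 879 regions that had 1 peak from each replicate (2.96%, 2.03 to 4.30). All 3 lay over 1 kb from any gene end, where they made 3 of 17 regions of the interval (17.6%, 6.19 to 41.0). Of the regions elsewhere that lay as far from gene ends, 17 of 529 were as wide (3.21%, 2.02 to 5.09). Widths of 1 locus are not replicates, and no test was made.

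**Figure D4:**
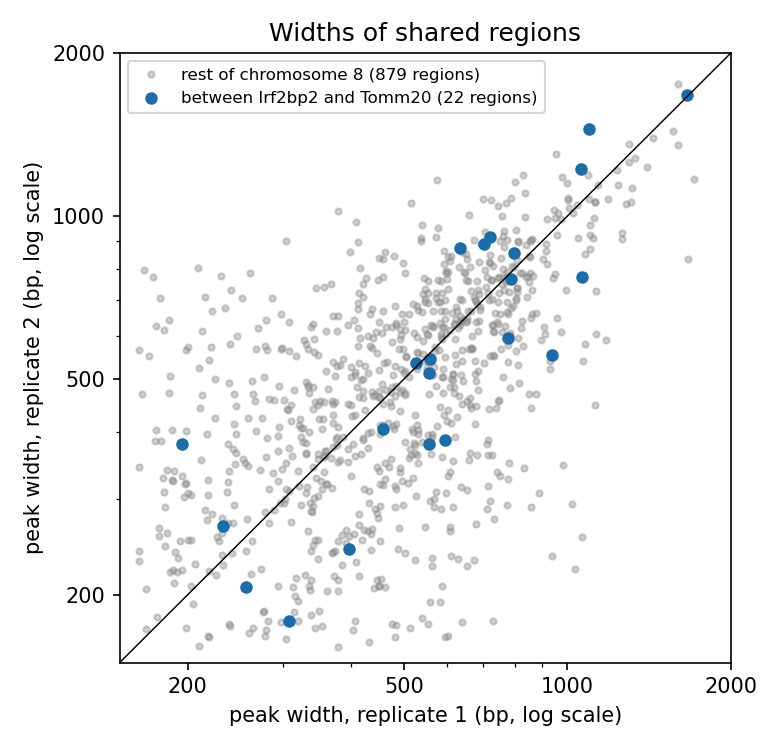
Width of each shared region in replicate 1 (horizontal axis) and replicate 2 (vertical axis), in bp on log scales, with the line of equal widths. The 22 regions between Irf2bp2 and Tomm20 (blue) reach 1663 and 1675 bp, and the 879 of the rest of chromosome 8 are grey. The wider peak was a median of 1.27 times the narrower in the interval and 1.31 times elsewhere.

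Widths also followed each other between the replicates. Across the 22 regions Pearson's r of log2 width was 0.86 and Spearman's rho 0.88, against 0.55 and 0.56 across the 879 regions elsewhere. These correlations are across regions of the same pair of libraries and serve as a description. The wider peak of a region was a median of 1.27 times the narrower, close to the 1.31 times of the regions elsewhere. The largest was 1.94 times in the interval and 4.80 times among the far more numerous regions elsewhere. It was that of replicate 1 in 12 regions and that of replicate 2 in 10, so neither replicate was wider throughout. The midpoints in both replicates differed by 4 to 247 bp, with a median of 72.0, against a median of 76 elsewhere.

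Genes related to Irf2bp2 and Tomm20 were looked up in the same way. A gene was linked where a region's midpoint lay in it or within 10 kb, which held for 52.6% of all protein-coding genes, with a median of 1 region a gene. In the list of the IRF2BP family and its partners, 5 of 6 genes were linked, with a median of 2 regions. Irf2bp2 had 3, its paralogues Irf2bp1 and Irf2bpl had 1 each, Vgll4 had 5 and Nfatc2, which encodes the NFAT partner, had 6. Irf2, which encodes the factor that gave the family its name, had none, and its nearest region was 27.9 kb from the start. In the TOM complex list 7 of 9 were linked, with a median of 1 region. They included Tomm22, a second receptor, Tomm40, the channel, and Tomm70a, the receptor for carrier proteins, with 1 each. In the list of the TIM23 complex of the inner membrane 5 of 9 were linked, a share near that of all genes. Counts were not adjusted for gene length, and Vgll4 and Nfatc2 are far longer than Irf2bp2. With lists of 6 to 9 genes chosen with earlier results known, these counts are no evidence about the lists.

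Regions away from gene ends were counted too. Counting regions over 1 kb from any gene end, in a gene or within 100 kb of it, Irf2bp2 had 10, of which 4 lay beyond its 3′ end and 6 before its start. It ranked 37 of 21887 protein-coding genes, with 33 genes at that number. The median of all genes was 1. Nfatc2 had 12, Vgll4 9, Irf2bpl 6, Irf2 4 and Irf2bp1 1. Tomm20 had 6, all of them at its 3′ side, and the other TOM genes had 0 to 3. The TIM23 genes had 0 to 4, with 4 for Pam16 of the import motor. In the 3 lists, Tomm40, Tomm5, Tomm20l, Timm23, Timm44 and Dnajc19 had none. This count was chosen after the regions were seen. It includes the gene itself and was not adjusted for gene length, and Nfatc2 and Vgll4 are far longer than Irf2bp2 and its paralogues.

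**Figure D5:**
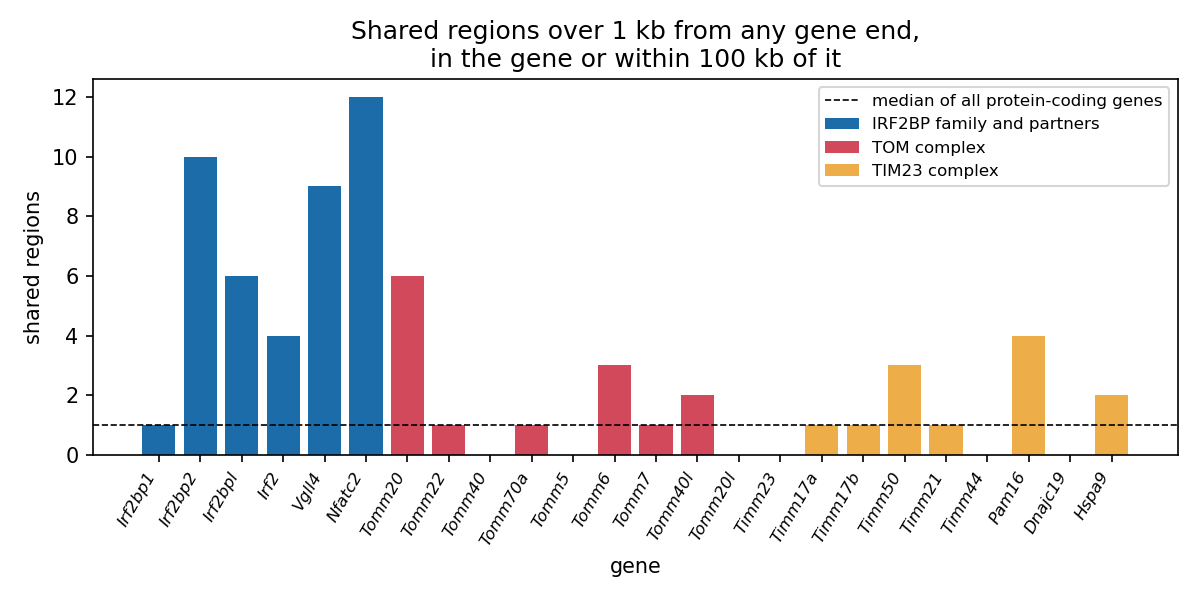
Shared regions over 1 kb from any gene end, in each gene or within 100 kb of it (vertical axis), for the genes of 3 lists (horizontal axis). Irf2bp2 has 10, Nfatc2 12 and Vgll4 9, and the dashed line is the median of all protein-coding genes, 1. Counts are not adjusted for gene length.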

How the data were processed

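The deposited files are 1 peak list for each replicate, deposited by the authors, and the lists differ, so they are not 1 pooled call. fastp 0.19.6, Bowtie2, deepTools and the build GRCm38 (mm10) are listed in the submitters' processing notes, without their roles. Which peak caller and threshold were used is not given in the sources used here. Without a header, the deposited columns are a running number, chromosome, start, end and width in bp. The width equals end minus start plus 1 in every line.

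Peaks of both replicates overlapping by at least 1 bp were merged into shared regions and placed by their midpoint (Python 3.11.15, scipy 1.17.1 for Wilson intervals at 95%). Gene spans and promoter sequences came from RefSeq (GRCm38.p6); all 24 list members matched. On simulated lists of regularly spaced peaks, the counts of shared regions in the interval and in the rest were recovered exactly in 3 of 3 simulations. This checks the counting only, by the same midpoint rule. The alternatives were a reciprocal overlap of 50%, peaks above their list's median width, each replicate alone, and other intervals and backgrounds. Named genes are those of the window, of 3 lists and beside the 5 densest gaps of chromosome 8, of which 1 is not reported here; genes of other gaps were chosen after their values were seen. The members and lists were chosen with earlier results of these data known. No genome sequence was used, so motifs were searched in promoters only.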

Additional observations from a re-analysis of the deposited data

How the results depend on the processing

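The 22 shared regions between the genes became 19 with a reciprocal overlap of at least 50% and 15 with peaks above their list's median width. The interval was chosen by its density in these same lists, so a ratio above 1 and a high rank were favoured beforehand under every alternative. The density ratio of 9.08 was 10.51 with the reciprocal overlap, 12.02 with the wide peaks and 7.23 for the whole window. It was 11.74 over 1 kb from any gene end and 12.22 against only the gaps between protein-coding genes. With either replicate left out it was 6.91 to 7.59. The gap ranked 3 of 207 on chromosome 8 with gaps of at least 50 kb, after Cibar2 to Gse1 and Gas6 to 1700029H14Rik, which held 4 regions each. It ranked first under the other 5 settings tried. The overlapping share of 81.5% was 70.4% with the reciprocal overlap and 88.0% for the peaks of replicate 2. The median width over both replicates, 550 bp, was 764 bp with the wide peaks, which follows from the choice. No paired analysis was possible because the series has 1 group. The depth is unknown, and sites below the limit of calling are not in the lists.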

Other observations

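A paralogue of Irf2bp2, Irf2bpl, also stood beside a dense gap, an observation made after the gaps were ranked and given without a test. The gap from Lrrc74a to Irf2bpl on chromosome 12 (86769026 to 86880702) had 7 shared regions in 111.7 kb, or 62.7 per Mb, and ranked 6th of 2967 gaps of at least 100 kb. Replicate 1 listed 7 peaks in it and replicate 2 listed 9. The gap from Tarbp1 to Irf2bp2 ranked 11th of the 2967, with the region at the start of Tarbp1 counted in it. No gap beside Irf2bp1 is given here, so the 3 genes are set side by side only by shared regions within 100 kb. Irf2bp1 had 7 of these, 1 of them over 1 kb from any gene end. By the same count Irf2bpl had 10 and 6, and Irf2bp2 had 13 and 10.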
